A study of Mus musculus with 2 samples.

Results

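The replication-dependent histone genes of the mouse supply the core histones H2A, H2B, H3 and H4 and the linker histone H1. The set holds the 67 of 21938 protein-coding genes of GENCODE M21, the gene annotation used here, whose symbol starts with Hist1h, Hist2h, Hist3h or Hist4h. There are 18 H2A, 18 H2B, 12 H3, 13 H4 and 6 H1 genes, of which 54 have Hist1 symbols, 10 Hist2, 2 Hist3 and 1 Hist4. The assay was ATAC-seq, which finds accessible chromatin by letting a transposase insert sequencing adapters into exposed DNA, and the cells were the mouse line G1E. G1E is labelled as a male C57BL/6J erythroid progenitor line that lacks GATA1, a transcription factor needed for red cell maturation, so both libraries carry that loss. The series has 1 group of 2 biological replicates made from 50000 cells each, with no other condition to compare, and the labels do not say whether the replicates came from separate cultures. The deposited lists give regions, not read totals, so the depth is unknown and a missing region cannot be read as closed chromatin.

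Replication-dependent histone genes are transcribed mainly in S phase, when newly copied DNA must be packed into nucleosomes. Most of them have no introns, lie in clusters, and make mRNAs that end in a stem-loop instead of a poly(A) tail. Each promoter type has its own known elements: the CCAAT box bound by NF-Y, the octamer bound by POU2F1 (OCT1) at H2B promoters, the core site of HINFP at H4 promoters, and an A-rich box at H1 promoters. NPAT, a coactivator phosphorylated by cyclin E and CDK2, acts at the clusters. Hist1h1t, Hist1h2ba and Hist1h2aa encode the testis histones H1t, TH2B and TH2A and are known from male germ cells.

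The sequence between the starts of Hist1h2ac (H2A, minus strand) and Hist1h2bc (H2B, plus strand) is shown because it lay inside the strongest region shared by a histone gene pair. It is chr13:23683949-23684198 of GRCm38 (mm10), written on the plus strand, with capitals for exact matches on either strand. The TATA box was sought as TATAAA, the NF-Y site as the letters CCAAT, and the octamer as ATTTGCAT.
Hist1h2ac to Hist1h2bc: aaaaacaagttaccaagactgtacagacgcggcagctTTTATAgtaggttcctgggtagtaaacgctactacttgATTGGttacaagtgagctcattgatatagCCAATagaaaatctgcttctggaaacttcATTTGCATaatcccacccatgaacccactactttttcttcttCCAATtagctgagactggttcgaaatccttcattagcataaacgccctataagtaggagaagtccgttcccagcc
It held 1 TATA box match, 3 CCAAT matches and 1 octamer match. The 150 bases before the start of the strongest H3, H4 and H1 genes follow, each on the gene's own strand. They are chr13:23562370-23562519 (minus strand), chr13:23698455-23698604 (minus strand) and chr13:23738658-23738807 (plus strand). Capitals mark CCAAT, the HINFP core GGTCCG, the H1 box AAACACA, and the TATA box and octamer letters given above, on either strand.
Hist1h3e: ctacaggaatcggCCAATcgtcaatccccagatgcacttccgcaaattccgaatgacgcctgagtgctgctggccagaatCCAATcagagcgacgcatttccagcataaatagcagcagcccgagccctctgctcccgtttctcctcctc
Hist1h4c: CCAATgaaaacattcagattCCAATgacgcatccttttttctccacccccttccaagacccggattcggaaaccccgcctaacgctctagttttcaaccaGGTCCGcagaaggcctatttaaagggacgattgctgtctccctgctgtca
Hist1h1c: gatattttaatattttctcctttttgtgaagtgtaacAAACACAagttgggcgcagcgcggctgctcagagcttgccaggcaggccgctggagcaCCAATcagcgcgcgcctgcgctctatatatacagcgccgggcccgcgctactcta
For contrast, 3 genes with no listed region near the start are shown the same way. They are the testis gene Hist1h2aa at chr13:23934312-23934461 (plus strand), the testis gene Hist1h1t at chr13:23695664-23695813 (plus strand) and the H4 gene Hist1h4b at chr13:23756863-23757012 (plus strand).
Hist1h2aa: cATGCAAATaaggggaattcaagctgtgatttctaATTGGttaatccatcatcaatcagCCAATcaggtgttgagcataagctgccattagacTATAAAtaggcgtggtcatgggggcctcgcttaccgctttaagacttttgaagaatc
Hist1h1t: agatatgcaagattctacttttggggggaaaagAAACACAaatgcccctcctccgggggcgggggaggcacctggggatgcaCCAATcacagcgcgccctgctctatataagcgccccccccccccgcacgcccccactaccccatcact
Hist1h4b: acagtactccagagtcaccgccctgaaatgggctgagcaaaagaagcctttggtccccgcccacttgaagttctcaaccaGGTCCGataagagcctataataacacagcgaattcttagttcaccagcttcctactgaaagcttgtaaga
Counted from the start site, the HINFP core began at position -50 in Hist1h4c and at -70 in Hist1h4b. The H1 box began at -113 in Hist1h1c and at -117 in Hist1h1t. These letters were thus present in genes with and without a listed region. All sequence was read from the RefSeq copy of the GRCm38 assembly.

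Most histone genes had an accessible region at the promoter in both libraries. A region with any base within 1000 bp of an annotated start was present for 57 of 67 members in replicate 1 and 57 in replicate 2, a mean of 85.1% ± 0.0 (SD, n = 2), against 40.5% and 42.1% of all protein-coding genes. In both replicates it was present for 55 members (82.1%, exact binomial 95% interval 70.8 to 90.4, which treats genes as independent although neighbours share regions), against 39.1% of all protein-coding genes. Regions that covered a start itself were listed for 49 members in replicate 1, 52 in replicate 2 and 46 in both (68.7%), against 36.3%, 38.4% and 34.8% of all protein-coding genes. In the authors' more lenient lists, 57 members had a region within 1000 bp in both replicates, against 43.3% of all protein-coding genes. Among regions of the stronger 50% of each list by signal, 29 members had one in both replicates (43.3%), against 27.2% of all protein-coding genes.

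The annotated start of some histone models is not at the promoter, so the start codon was used as a further anchor, chosen after the values were seen. The gene model of 11 members begins at the start codon itself, in 2 more (Hist1h2bq and Hist1h2br) 1 of several transcripts does, and in 3 the codon lies over 300 bp from any annotated start. A region touched the 300 bp before the start codon for 52 members in replicate 1, 54 in replicate 2 and 49 in both (73.1%), against 21.5% of all protein-coding genes. The same held for 8.63% of the 1530 other protein-coding genes no longer than 2000 bp. The codon lies within 300 bp of an annotated start in 64 members. In other genes it can lie farther off, so this window need not be at their promoter. These shares are therefore not like for like. Hist1h1d, an H1 gene, had no region within 1000 bp of its start, which lies 1828 bp from the coding sequence, yet had a region before its start codon at percentile 7.72 of signal in replicate 1 and 19.9 in replicate 2. Hist1h2be, an H2B gene whose start lies 35122 bp from the coding sequence, had a region at that distant start and also 1 before the codon, at percentiles 56.3 and 33.5.

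**Figure D1:**
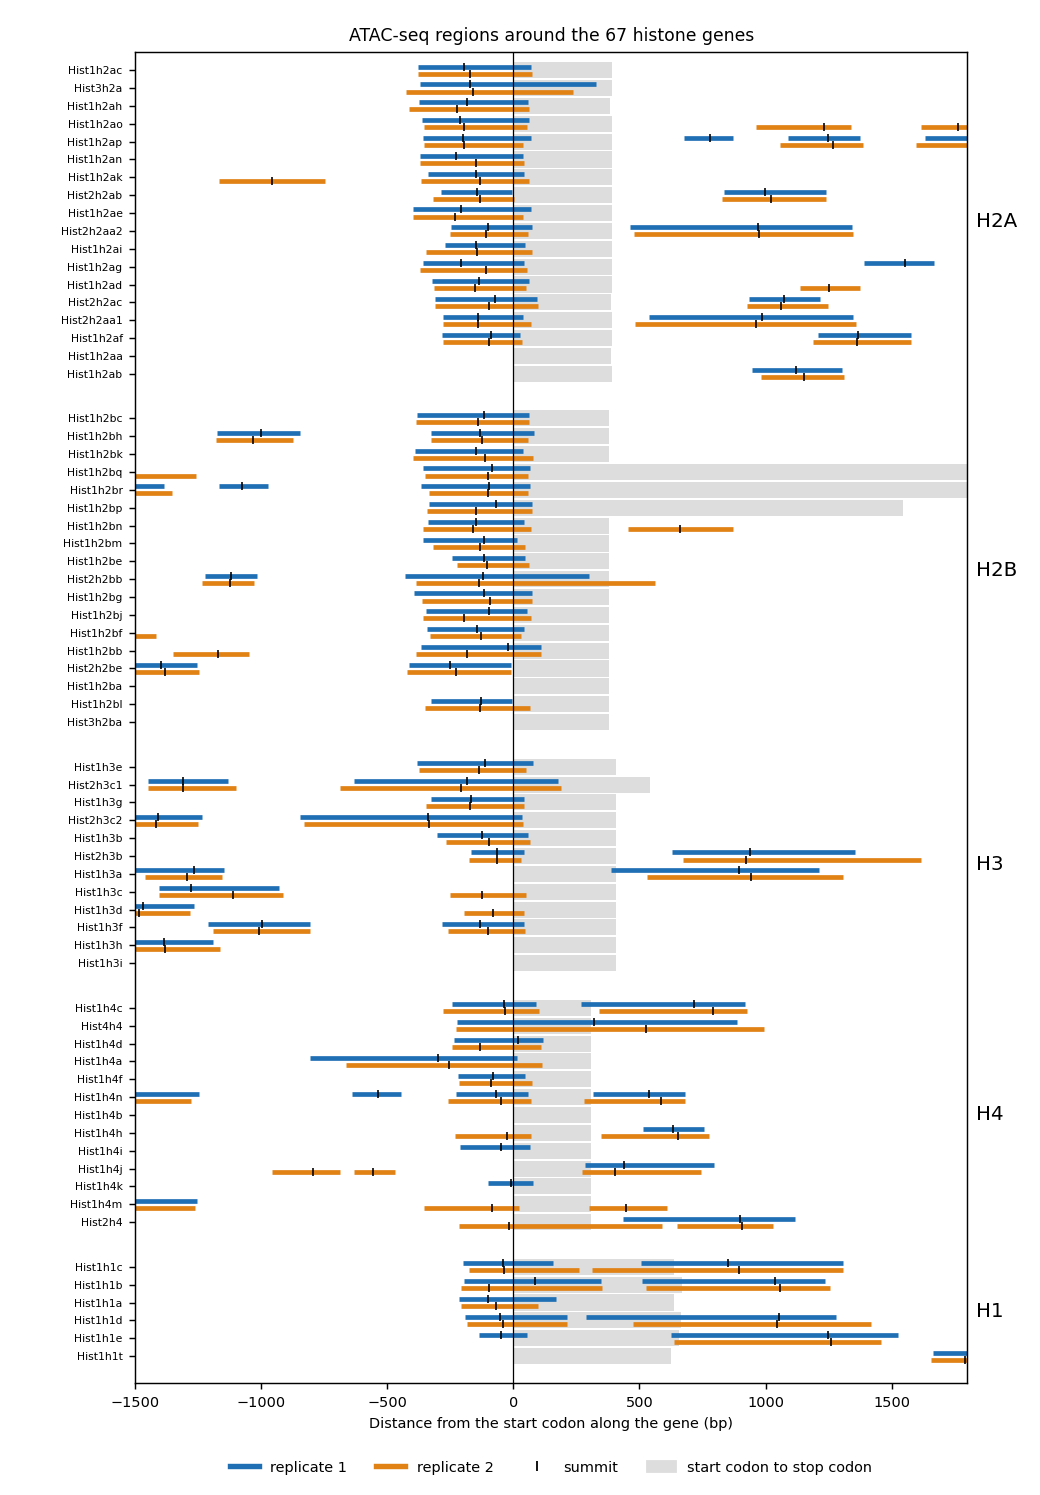
Regions of replicate 1 (blue) and replicate 2 (orange) around each of the 67 histone genes, by distance from the start codon in bp along the gene, with summits as black ticks. Grey bars run from the start codon to the outermost stop codon, introns included. The genes are grouped by class and, within a class, ordered by signal, and in H2A and H2B genes most regions lie before the start codon, while several H4 and H1 genes also have a region after the grey bar.

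H2A and H2B genes, whose products form the dimers at the flanks of the nucleosome, had regions most often. In both replicates, 17 of 18 H2A genes and 16 of 18 H2B genes had a region within 1000 bp, and 16 and 15 had one over the start. H3 genes, which with H4 make the central tetramer, followed with 9 of 12 within 1000 bp and 6 over the start. H4 genes had 9 of 13 and 6 of 13, and H1 genes had 4 of 6 and 3 of 6. These counts stand against 39.1% of all protein-coding genes within 1000 bp and 34.8% over the start, in both replicates. With classes this small the exact binomial 95% intervals overlapped, from 65.3 to 98.6% for H2A genes over the start, against 19.2 to 74.9% for H4 genes. The intervals of H3, H4 and H1 genes over the start each included the 34.8% of all protein-coding genes. No test was made, because the genes are not replicates.

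The strength of the regions over the start also differed by class. Signal is the deposited enrichment value of a peak and is not scaled between libraries, so each region is given by its percentile within its own list. Regions over a member's start had a median percentile of 46.4 in replicate 1 and 52.2 in replicate 2, against 70.5 and 72.1 for the other protein-coding genes. H2A starts were at 66.0 and 55.1, H2B starts at 64.9 and 59.1, and H3 starts at 52.6 and 56.2. H4 starts were at 14.1 and 13.4, over 8 and 9 regions, and H1 starts at 4.83 and 10.2, over 4 and 3 regions. For the strongest region within 1000 bp in place of the one over the start, H4 genes stayed low, at 14.2 and 15.5, while H1 genes were at 41.7 and 41.9, over 4 regions in each replicate. In Hist1h1b, Hist1h1c and Hist1h1e, that strongest region had its summit at least 892 bp past the start in both replicates. That of Hist1h1e covered a start of the H2B gene Hist1h2be. These H1 medians therefore rest mainly on regions away from H1 starts. The median over all members' starts counts each region once, over 39 regions in replicate 1 and 41 in replicate 2. Class medians count a region once per class. The 16 H2A and 15 H2B regions of replicate 1 came to 21 distinct regions, and the 16 and 16 of replicate 2 also to 21. The H2A and H2B medians are thus not independent of each other. Across the 46 members with a region over the start in both replicates, the percentiles of the replicates had a Spearman rho of 0.74, as a description, since both genes of a pair enter with the region they share.

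**Figure D2:**
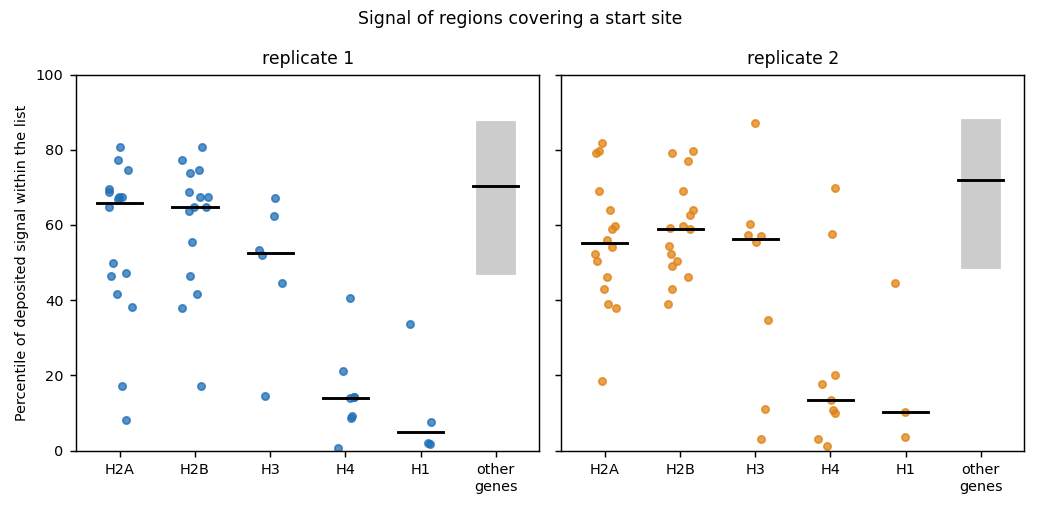
Percentile of deposited signal, from 0 to 100 within each replicate's list, for regions covering a start site, with replicate 1 at left and replicate 2 at right. Points are histone genes, black lines are medians over the distinct regions within each group, and the grey box spans the quartiles of the other protein-coding genes. The H4 and H1 medians reach at most 14.1 in either replicate, while H2A, H2B and H3 medians lie between 52.6 and 66.0.

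Among H2A genes, Hist1h2ac reached a signal of 12.1 in replicate 1 and 12.9 in replicate 2, percentiles 80.7 and 79.0. Its deposited −log10 p was 38.9 and 46.2, and the region ran 446 and 451 bp. Hist3h2a, 1 of the 2 Hist3 genes, was at percentiles 69.6 and 81.8, in a region that also covered the start of Trim17, which is no histone gene, in both replicates. Hist1h2ah was at 67.3 and 79.7. These were the strongest of the class by mean percentile, and all lay above the median region of both lists. At the other end, Hist1h2af was at percentiles 8.20 and 18.5. The other H2A genes with a covered start lay between 17.2 and 77.2 in replicate 1 and between 37.8 and 69.1 in replicate 2.

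Among H2B genes, the strongest were the partners of genes already named or lay beside an H3 gene. Hist1h2bc shared the region of Hist1h2ac, and Hist1h2bk that of Hist1h2ah. Hist1h2bh had a region over its start at percentiles 73.9 and 77.0. Hist2h2be differed most between the libraries in this class, at 17.2 in replicate 1 and 58.9 in replicate 2. The other H2B genes with a covered start lay between 38.0 and 77.2 in replicate 1 and between 38.9 and 69.1 in replicate 2.

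Among H3 genes, Hist1h3e had the highest value of any member in replicate 2, with a signal of 10.03 in replicate 1 and 14.6 in replicate 2, percentiles 67.1 and 87.2. Hist2h3c1 followed at 62.3 and 55.5, and Hist1h3g at 53.3 and 60.3. Hist1h3b was at 44.7 and 57.0 and Hist2h3c2 at 52.0 and 57.4, while Hist2h3b was weak in both lists, at 14.6 and 3.19. Hist1h3c had its start covered in replicate 2 alone, at 34.7. Hist1h3f, whose start lies 433 bp from its coding sequence, had a region before its start codon at 45.9 and 59.7. Translated from the genome, the 12 H3 genes encode 3 distinct proteins, counting every annotated transcript. The commonest is encoded by 8 genes, of which 5 had the start covered in both replicates. Hist1h3a, Hist1h3g, Hist1h3h and Hist1h3i do not encode it, and among them Hist1h3g was the member covered in both.

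All 13 H4 genes encode the same protein of 103 residues, the start methionine counted, yet their promoters differed from each other in these lists. Hist1h4c was the strongest, at a signal of 7.30 in replicate 1 and 11.4 in replicate 2, percentiles 40.5 and 69.9. Hist4h4 was at 21.3 and 17.7 and Hist1h4d at 14.1 and 20.1. Hist1h4f, Hist1h4a and Hist1h4n, the other H4 genes covered in both replicates, lay between 8.77 and 14.3 in both lists. Hist2h4 had a region over the start in replicate 2, at percentile 57.7, and none over it in replicate 1. Hist1h4h was likewise covered in replicate 2 alone, at percentile 1.24. Hist1h4j had no region over its start in either replicate, and its strongest region, at 21.6 and 30.8, lay at the end of its coding sequence.

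Among H1 genes, Hist1h1c led with percentiles of 33.6 in replicate 1 and 44.5 in replicate 2. Hist1h1b was at 2.07 and 10.2, and Hist1h1a at 1.69 and 3.60, near the bottom of both lists. Hist1h1e had a region over its start in replicate 1 at percentile 7.60 and none there in replicate 2. In replicate 2 it was counted within 1000 bp only through a region over a start of Hist1h2be, at percentile 54.5.

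The widest regions did not belong to the strongest promoters. Hist4h4 had a region of 1111 bp in replicate 1 and 1225 bp in replicate 2, against a median width of 420 bp for all regions in both lists, and it ran from before the start past the end of the coding sequence. Among regions within 1000 bp of a start, the next widest were the region after the coding sequence of Hist1h1c, 803 and 997 bp, and the region over the start of Hist2h3c2, 883 and 873 bp, which Hist2h2aa2 shared. The region after the coding sequence of Hist1h1d, farther from its start, ran 992 and 945 bp.

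The members without a region include all 3 testis genes. Hist1h1t, Hist1h2ba and Hist1h2aa had none within 1000 bp in either replicate, nor in the lenient lists. The region nearest to Hist1h2aa lay 20120 bp away in replicate 1 and 20115 bp in replicate 2. Hist1h4b, whose nearest region lay 4128 and 4032 bp away, and Hist1h1d at its distant start also had none in any of these lists. Hist3h2ba, an H2B gene, and the H3 genes Hist1h3h and Hist1h3i had none in the main lists and 1 in a lenient list of 1 replicate. These 8 make up all members with none in either replicate (11.9%), against 56.4% of all protein-coding genes. With absence so common, the lack of a region at 3 testis genes says little by itself.

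A further 4 members (5.97%) had a region within 1000 bp in 1 replicate, against 4.52% of all protein-coding genes. Hist1h4k and Hist1h4i had theirs in replicate 1, at percentiles 9.18 and 0.65, and Hist1h4m and Hist1h3d had theirs in replicate 2. The start of Hist1h4m was covered at percentile 3.18 and that of Hist1h3d at 11.2. All were weak regions, and the lenient lists added the missing replicate for Hist1h4i and Hist1h4m.

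Some members were counted through a neighbour. In replicate 1, 5 members had regions that covered another gene's start and not their own, and in replicate 2 there were 4. Hist1h3a was counted through the region of the H4 gene Hist1h4a and Hist1h2ab through that of the H3 gene Hist1h3b. Hist1h2ab lay just inside the window, 953 bp from the region in replicate 1 and 988 bp in replicate 2. Hist1h3h lay just outside it, 1191 and 1164 bp from the nearest region, which belonged to the pair Hist1h2bl and Hist1h2ai. When each region was given to the gene with the nearest start, 38 members kept a region in both replicates.

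Divergent pairs, in which neighbouring genes start back to back on opposite strands within 1000 bp, hold 26 of the 67 members. There are 13 histone pairs, 12 of H2A with H2B and 1 of H2B with H3 (Hist1h2bh with Hist1h3f), and their starts lie a median of 268 bp apart, against 129.5 bp for all 754 divergent protein-coding pairs. In both replicates, 12 of the 13 histone pairs shared a region, against 82.4% of all such pairs. A region covered both starts in 10 of 13, against 67% of all pairs. The exception was the testis pair Hist1h2ba and Hist1h2aa, 306 bp apart.

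The summit of the strongest shared region lay between the starts in all 12 sharing pairs in both replicates, against 49% of the 621 sharing protein-coding pairs. Of the histone pairs with starts 150 to 400 bp apart, a range chosen after the values were seen to match them, all 11 that shared a region had it there, against 66.8% of 208 such protein-coding pairs. Hist1h2ac and Hist1h2bc shared the strongest region, with the summit 166 bp from the H2A start in replicate 1 and 143 bp in replicate 2. Hist1h2bh and Hist1h3f followed at percentiles 73.9 and 77.0, but there the starts are 660 bp apart and the region covered the H2B start alone. That pair shared a second, weaker region in each replicate, with its summit 300 and 333 bp past the Hist1h3f start, outside the starts. The next were Hist1h2ah with Hist1h2bk, Hist1h2bq with Hist1h2ao at 68.6 and 69.1, and Hist1h2ap with Hist1h2br at 77.2 and 59.8. In Hist1h2bq, Hist1h2ao, Hist1h2ap and Hist1h2br, every 50-base stretch of the promoter was also found elsewhere in the genome. Their values may thus not belong to 1 locus alone.

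**Figure D3:**
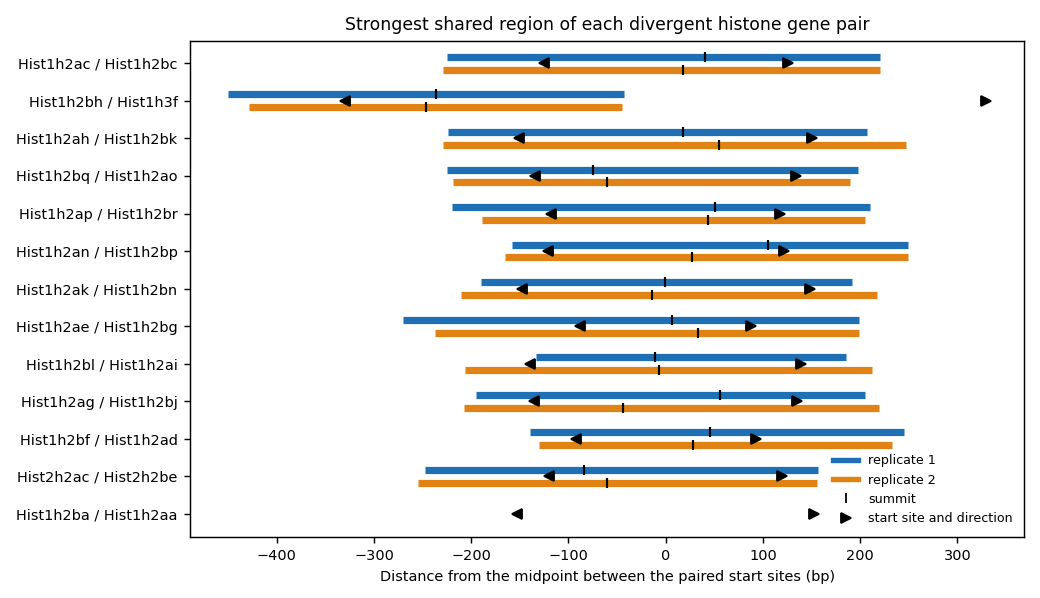
Strongest shared region of each of the 13 divergent histone pairs in replicate 1 (blue) and replicate 2 (orange), in bp from the midpoint of the 2 start sites. Arrowheads mark starts and direction and black ticks mark summits, and pairs run from the strongest at the top to the testis pair, which has no region, at the bottom. In 12 pairs every summit lies between the arrowheads.

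Summits also sat differently by class. For regions over a start, H2A summits had a median position of -134 bp from the start in replicate 1 and -114.5 bp in replicate 2, where minus is upstream, and H2B summits of -85 and -111 bp. H3 summits had medians of -113 and -87 bp. H4 summits lay closer, at -20 and -30 bp over 8 and 9 members, with ranges of -227 to 357 and -182 to 563 bp. H1 summits were at 5 bp in replicate 1 and -17 bp in replicate 2, over 4 and 3 members. The other protein-coding genes had medians of -49 and -48 bp. Positions are from annotated starts, which for some members are not at the promoter. H2A and H2B partners of a pair enter with the same summit.

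Several H4 and H1 genes had a region after the coding sequence, often still inside the annotated gene. A summit lay within 600 bp after the coding sequence, a distance chosen after the values were seen, for 13 members in both replicates (19.4%), against 0.711% of all protein-coding genes. Of these regions, 8 covered no protein-coding start, against 0.36% of all protein-coding genes and 0.523% of the 1530 other genes no longer than 2000 bp. They were at the H1 genes Hist1h1b, Hist1h1c and Hist1h1d and the H4 genes Hist1h4j, Hist1h4n, Hist1h4h, Hist1h4c and Hist2h4. In Hist1h1c, Hist1h1d, Hist1h4c, Hist1h4j and Hist2h4, 5 of the 8, the summit lay before the annotated end of the gene in both replicates, and in the other 3 it lay past it. No H2A, H2B or H3 gene had such a region in both replicates. The replicate 1 and replicate 2 regions of Hist1h1c lay at percentiles 49.2 and 60.7, above the region at its own start, with the summit 216 and 259 bp after the coding sequence. Those of Hist1h4c lay at 26.2 and 8.84, below its start region. With a summit limit of 300 bp the 8 became 3, and with the stronger 50% of regions 1.

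The genes lie in 7 blocks, taking a gap of over 100 kb as a boundary. On chromosome 13, the block from Hist1h4h to Hist1h1a spans 233.4 kb with 29 members, of which 25 had a region in both replicates, and the iron regulator Hfe, the other protein-coding gene in it, had none in both. The block from Hist1h2bl to Hist1h2br held 18 members, 14 with a region in both, and that from Hist1h2ah to Hist1h2bj held 5, 4 with a region. All 10 members of the chromosome 3 block of Hist2 genes had a region in both. Of the 2 Hist3 genes on chromosome 11, Hist3h2a had one, and Hist4h4 on chromosome 6 had one. The 52 members with no 50-base stretch of the 300-base promoter found elsewhere in the genome included 44 with a region in both replicates (84.6%). In 10 members over 50% of such stretches were repeated, 9 of them with a region in both. They were Hist1h2bq, Hist1h2ao, Hist1h4m, Hist1h4n, Hist1h2ap, Hist1h2br, Hist2h3c2, Hist2h2aa2, Hist2h2aa1 and Hist2h3c1. How the authors placed reads from repeated sequence is not given in the sources used here, so the percentiles of these members may mix copies.

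Promoter motifs, sought as exact letters on either strand from 250 bp before to 50 bp after the start, differed in share between the histone classes. CCAAT was found in 56 members (83.6%), against 39.0% of all protein-coding promoters, with 18 of 18 H2A, 18 of 18 H2B and 11 of 12 H3 promoters, but 4 of 13 H4 promoters. The octamer ATTTGCAT was in 7 H2A and 8 H2B promoters, 10 of these 15 being the partners of 5 divergent pairs, and in no other class, against 1.57% of all promoters. On the gene's own strand alone it was in 0 H2A and 8 H2B promoters, so every H2A match ran in the opposite direction. The HINFP core GGTCCG was in 12 of 13 H4 promoters, against 9.60% of all, Hist1h4a being the one without it. Outside H4 it was in Hist1h3i, Hist1h2bh and Hist1h3f. The H1 box AAACACA was in 4 of 6 H1 promoters, against 6.40% of all. Outside H1 it was in Hist1h2bm, Hist1h2bc, Hist1h2ab, Hist1h2ba and Hist1h3a.

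The E2F letters TTTCGCGC were in 9 members, 5 H2A and 4 H2B genes, against 0.351% of all promoters. Of these, 8 are the partners of 4 divergent pairs, whose windows overlap. On the gene's own strand alone the letters were in 5 H2A and 0 H2B genes, and the same counts were found from 150 bp before the start on either strand. All 9 had the start covered in both replicates, as did 31 of all 36 H2A and H2B genes. TATAAA was in 37 members (55.2%), against 12.6% of all promoters, and the GC box GGGCGG in 28 (41.8%), against 43.0%. Among the 12 members with no region over the start in either replicate, TATAAA was in 9, CCAAT in 8 and the octamer in 3, against 23, 43 and 12 of the 46 covered in both. Those of the 12 without CCAAT were the H4 genes Hist1h4j and Hist1h4b, and Hist1h1d and Hist1h3f. The starts of Hist1h1d and Hist1h3f lie 1828 and 433 bp from the coding sequence. In the 300 bp before their start codons they held 1 and 3 CCAAT matches, and both had a region there in both replicates. The ratio of observed to expected CpG had a median of 0.75 in the members, against 0.525 in all protein-coding promoters, and GC content was 45.3%, against 55.0%. A match is a string of letters and shows no bound factor.

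**Figure D4:**
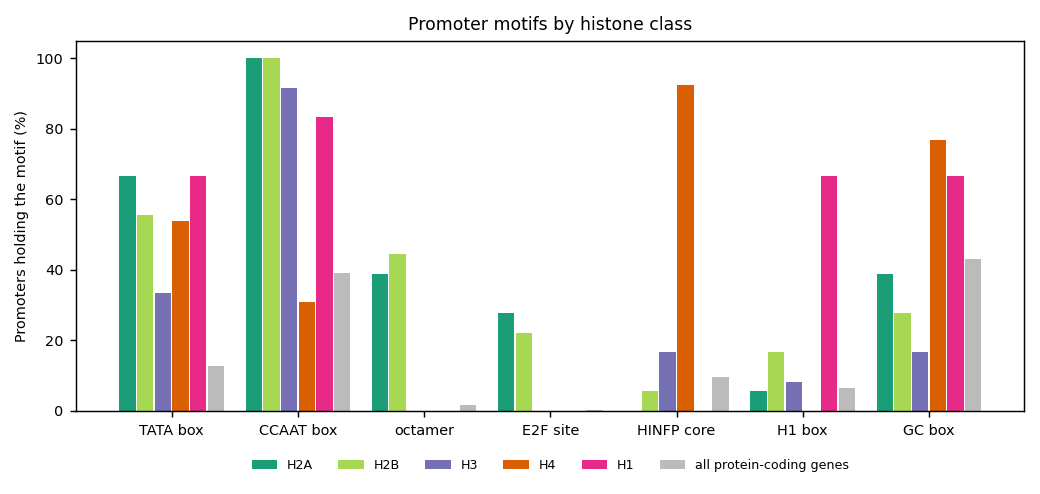
Share of promoters in percent that hold each motif, from 250 bp before to 50 bp after the start, for the 5 histone classes and for all protein-coding genes (grey). H2A and H2B bars reach 100% for the CCAAT box, and the H4 bar reaches 92.3% for the HINFP core.

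The genes that make and handle the histone mRNAs and proteins were described the same way, and their counts stand against the 39.1% of all protein-coding genes with a region within 1000 bp in both replicates. Of 20 genes for histone gene transcription and 3′ end processing of the mRNA, 19 had a region within 1000 bp in both replicates, and Ncbp1, a cap-binding subunit, had one in replicate 2. The strongest were Hinfp, at percentiles 98.9 in replicate 1 and 98.1 in replicate 2, and Lsm10, a component of the U7 snRNP, at 95.5 and 98.9. Npat was at 77.9 and 87.5 and Slbp, which binds the stem-loop, at 67.8 and 86.7. The median of this list was 63.6 and 70.6, against 69.3 and 71.2 for all protein-coding genes. All 24 histone chaperone genes had a region in both, led by Anp32e, a chaperone of H2A.Z, at 99.8 and 96.7, and Nap1l4 at 97.6 and 96.7. The median percentile of the chaperones was 81.7 in replicate 1 and 78.2 in replicate 2.

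The 14 replacement and variant histone genes, of which H3.3 and H2A.Z are known to be made throughout the cell cycle, had 8 with a region in both replicates (57.1%), against 39.1% of all protein-coding genes. H3f3b, which encodes H3.3, was at percentiles 93.0 and 94.2, and H2afv, an H2A.Z gene, at 91.2 and 90.3. H1f0 and H1fnt, the linker histone H1.0 and a testis linker histone, were among the 6 with none, as were H1foo, H1fx, H2afy2 and Hils1. The median of this list was 78.2 and 83.4.

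The cell type label was checked against marker genes. All 8 erythroid markers, Klf1, Tal1, Gfi1b, Nfe2, Epor, Rhag, Slc4a1 and Tfrc, had a region in both replicates, against 39.1% of all protein-coding genes. They ranged from Tal1 at percentiles 7.13 and 15.99 to Nfe2 at 88.8 and 91.2, with a list median of 46.1 and 44.3. None of 6 granulocyte and macrophage markers and none of 6 lymphoid markers had one in either replicate. Of all protein-coding genes, 56.4% likewise had none in either, so these small lists say little by themselves. Of 6 fibroblast markers, Col1a1 had one in replicate 2, at percentile 25.6. Accessibility is not expression, and the lists do not show whether other cells were present at low share.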

How the data were processed

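ATAC-seq was run on 2 biological replicates of G1E, which form 1 group. Per the labels, the build is mm10. Peak lists deposited by the authors cover each replicate, thresholded by the irreproducible discovery rate, a measure of how alike peaks rank in repeated samples, along with more lenient lists and lists over both replicates. The submitters' notes derive the thresholded lists from the alignments and from another file, whose content they do not name. Alignment and peak calling tools, and the treatment of multi-mapped reads, were not given in the sources used here. Each deposited peak has a signal value, the enrichment the authors' caller gave, and a −log10 p value, also deposited. Deposited signal is not scaled between libraries and was used as percentiles within a list.

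The per-replicate lists held 26083 and 27810 peaks. Overlapping or touching intervals were merged into 21194 and 22620 regions, and each took its summit and signal from the strongest peak. Members, classes and start sites came from GENCODE M21, which is on GRCm38 (mm10), the build the labels give. In the lenient list of replicate 1, every peak ended within the length of its GRCm38 chromosome, which alone does not settle the build. Promoter regions lay within 1000 bp of a start of any transcript. A divergent pair has starts within 1000 bp. Sequence came from RefSeq's GRCm38.p6. Motifs were exact strings. Repeats were 50-base stretches found elsewhere in the genome on either strand. Overlap code was tested on simulated peaks. The tools were Python 3.11.15, pandas 2.3.3, NumPy 2.4.6, SciPy 1.17.1 and matplotlib 3.10.9.

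No test was run, since there is 1 group and genes are not replicates. Intervals are exact binomial at 95% and cover counting alone. The members and lists were chosen with earlier results of these data known. Named genes were, per class, the 3 members with the highest mean percentile; all members with a region in neither or in 1 replicate; the 3 widest; the 5 strongest divergent pairs; those at the edge of the window; and, per other list, the strongest 2 and, of those with no region, the alphabetically first 2. Any other gene named was picked with its values known. Alternatives are the lenient lists, the stronger 50% of regions, lists over both replicates, windows of 500, 2000 and 0 bp, the outermost start, unmerged summits, the nearest gene, each replicate left out, pair distances, motif windows and the strand.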

Additional observations from a re-analysis of the deposited data

How the results depend on the processing

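Of 110 recomputed values, 86 stayed within 1.5 times of a count or within the error of a share or percentile, and 24 did not. For the share of members with a region and the median percentile, that error was the SD over the 2 replicates. This SD was 0.0 for the share, so any change in it counted as a shift, while a count of 38 against 55 did not. The split between 86 and 24 is thus no measure of robustness. Members with a region in both replicates numbered 55 and ranged from 38, when each region went to the gene with the nearest start, to 61 within 2000 bp, apart from the stronger 50% of regions, which gave 29. That setting also gave 7 of the 12 divergent pairs, 11 of 17 H2A, 10 of 16 H2B, 1 of 9 H4 and 1 of 4 H1 genes, and, after the coding sequence, 4 of 13 members and 1 of the 8 regions that cover no start. Giving each region to 1 gene leaves 0 shared pairs by construction. With each replicate left out in turn, the count of members was 57 both times, that of pairs 12, and those after the coding sequence 15 both times and 9 to 10. A summit limit of 300 bp gave 4 and 3 regions after the coding sequence.

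The mean share of members with a region, 85.1%, was 88.8% in the lenient lists, 50% with the stronger 50%, 82.1% in the list over both replicates, 80.6% within 500 bp and 91.8% within 2000 bp. The mean over replicates of the members' median percentile, 52.0 for the strongest region within 1000 bp, was 69.9 in the lenient lists, 63.7 with the stronger 50%, 42.9 in the list over both replicates and 39.9 in the conservative one. The lists differ in length, so these percentiles are not on 1 scale. On the gene's own strand alone the GC box share was 26.9% and the octamer share 11.9%, and before the start codon the GC box share was 26.9%. In the lenient lists 1 fibroblast marker, against 0 in the main lists, had a region in both replicates. No paired analysis was possible because there is 1 group. The cause of these shifts was not tested. Peak lists carry no read totals, so depth cannot be weighed.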
